A study of Mus musculus with 12 samples.

Results

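The genes described are 49 genes that copy the genome during S phase: those that mark and license origins, open and unwind the DNA, synthesise both strands, supply nucleotides and rebuild chromatin behind the fork. They were chosen by name from the gene symbols of the count tables. All 49 were found among the 24525 symbols, and all 49 passed edgeR's filter on low counts, with 13112 genes left to test. In every library each of the 49 genes had at least 3 counted reads, and the highest count was 5066.

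RNA was taken from neurospheres, which are free-floating cultures of neural stem/progenitor cells (NSPCs), grown from E14.5 embryonic forebrain of C57BL/6 mice and collected at passage 1. All cultures received 20 ng/ml EGF and 10 ng/ml bFGF. The 3 wild type input libraries carried both normal copies of Ythdf2, an m6A reader, and the 3 Ythdf2-/- input libraries were grown from embryos of intercrossed heterozygotes whose ancestors carried a Cre active in all tissues, which had removed the floxed 5′ UTR and exon 1, so the deletion was in every cell. The libraries were the fragmented mRNA set aside before m6A immunoprecipitation, no drug was given to either genotype, and the labels do not say whether replicates came from separate litters.

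Replication starts at origins bound by the origin recognition complex. In G1, Cdc6 and Cdt1 load the ring-shaped Mcm2 to Mcm7 helicase there, and geminin (Gmnn) blocks a further loading by binding Cdt1. In S phase, Cdc45 and the GINS complex join the ring to form the active helicase, primase and the polymerases copy the strands, and the sliding clamp Pcna holds the polymerases on the DNA. Many of these genes are transcribed in late G1 and S under E2F transcription factors, and neural progenitors express them while they cycle.

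Ythdf2 itself had 71.8, 73.3 and 91.3 CPM (counts scaled to a common library size) in wild type replicates 1, 2 and 3 and 11.7, 14.6 and 11.1 CPM in Ythdf2-/- replicates 1, 2 and 3, so the genotypes did not overlap. The libraries held 11029827 to 13185778 counted reads. Wild type replicate 3 stood apart from the other 5 libraries: its chi-square per degree of freedom over the tested genes was 96.4 to 149.6 against each of them, 23.7 to 60.2 between Ythdf2-/- replicates and 4.76 between wild type replicates 1 and 2. Between wild type replicates 1 or 2 and the Ythdf2-/- libraries it was 25.8 to 41.4, within the range of the Ythdf2-/- pairs. Reads on 4 Y-linked genes summed to 1111 and 1638 in wild type replicates 1 and 2 and 2147 in Ythdf2-/- replicate 3, and to 0 or 1 in the other 3 libraries. The genotype comparison of the 49 genes is therefore given with and without wild type replicate 3. Without it, the wild type side rests on 2 libraries that differed less from each other than any other pair did.

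The promoters show one feature that the choice of genes did not use. RefSeq promoter sequences of GRCm38.p6, from 250 bases before to 50 after a transcription start, were at hand for 41 of the 49 genes, and not for Pole, Mcm4, Gins1, Prim2, Gmnn, Gins4, Rfc2 and Gins2. They were searched on both strands for 3 E2F-type motifs and for the CCAAT box. TTTGGCGC was present in 6 of the 41 genes (14.6%) and in 0.585% of all 27025 symbols with a promoter (1.15% of the 10129 whose expression was tested), and the 6 genes were Cdt1, Mcm3, Mcm5, Mcm6, Pola1 and Pole2. TTTCGCGC was present in 7 of the 41 (17.1%) and in 0.374% of all symbols (0.721% of those tested), in Orc1, Mcm5, Mcm6, Mcm7, Rfc3, Lig1 and Uhrf1. TTCCCGCC was present in 9 of the 41 (22.0%) and in 2.52% of all symbols (4.83% of those tested). At least 1 of the 3 motifs was present in 18 of the 41 genes (43.9%), in 3.39% of all symbols and in 6.51% of the symbols tested. CCAAT, a box shared by many promoters, was present in 25 of the 41 (61.0%) and in 41.1% of all symbols (43.5% of those tested). These shares are a description of letters in a window, and binding of any factor was not measured.

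Windows of 80 bases are shown for genes whose TTTGGCGC or TTTCGCGC lay wholly before an annotated transcription start. Only windows without an annotated exon of the gene are shown. For Orc1 and Uhrf1 the start used lies inside the gene, which is annotated from base 108575705 and 56303337. Their windows therefore lie within the gene span and not before the whole gene. The windows show how the 2 motifs sit near an annotated start of an origin recognition gene, 2 of the Mcm genes and the chromatin gene Uhrf1. Each is written 5′ to 3′ in the direction of the gene, with the motif, or its reverse complement, in capitals.
Mcm6 (chr1:128359741-128359820, minus strand, bases -115 to -36): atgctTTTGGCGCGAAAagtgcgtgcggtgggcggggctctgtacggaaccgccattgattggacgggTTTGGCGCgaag
Mcm5 (chr8:75109322-75109401, plus strand, bases -187 to -108): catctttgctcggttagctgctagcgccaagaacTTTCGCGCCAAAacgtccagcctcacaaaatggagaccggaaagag
Orc1 (chr4:108579374-108579453, plus strand, bases -80 to -1): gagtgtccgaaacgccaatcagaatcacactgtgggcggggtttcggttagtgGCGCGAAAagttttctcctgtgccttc
Uhrf1 (chr17:56304092-56304171, plus strand, bases -221 to -142): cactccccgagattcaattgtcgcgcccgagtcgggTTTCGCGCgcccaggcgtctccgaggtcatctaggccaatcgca
In Mcm6 and Mcm5 the 2 motifs overlap and share bases on opposite strands, and Mcm6 holds TTTGGCGC again nearer to the start. The motif positions were -110, -106 and -47 in Mcm6, -153 and -149 in Mcm5, -27 in Orc1 and -185 in Uhrf1, counted to the first base of the motif from the start site at +1.

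The 49 genes were expressed at very different levels. Levels are compared between genes as RPKM, counts scaled for library and for gene length in kilobases, from the counts and the gene lengths in the deposited tables. Pcna was the highest in all 6 libraries, at 205 ± 6.55 RPKM in Ythdf2-/- (SD, n = 3) and 222 ± 129 RPKM in wild type (SD, n = 3), where replicates 1 and 2 averaged 297 RPKM. Rrm2 and Rrm1, the small and large subunits of ribonucleotide reductase, which makes deoxynucleotides, followed at 80.0 ± 4.15 and 74.6 ± 4.39 RPKM in Ythdf2-/- (SD, n = 3). These 2 did not differ beyond their spread. The helicase subunit Mcm7 came next at 66.2 ± 3.58 RPKM in Ythdf2-/- (SD, n = 3). In wild type the spread was wide, 79.3 ± 65.1 RPKM for Rrm2 and 73.0 ± 47.4 RPKM for Rrm1 (SD, n = 3), with replicate 3 far below the others. Wild type replicates 1 and 2 averaged 117 RPKM for Rrm2 and 100.3 RPKM for Rrm1.

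At the other end, the origin recognition subunit Orc1 was at 1.83 ± 0.231 RPKM in Ythdf2-/- and 1.95 ± 1.23 RPKM in wild type (SD, n = 3). The GINS subunit Gins3 was at 3.32 ± 0.375 and 3.64 ± 1.99 RPKM, and the loader Cdc6 at 3.89 ± 1.07 and 4.23 ± 3.61 RPKM, in Ythdf2-/- and wild type. Wild type replicates 1 and 2 averaged 2.62 RPKM for Orc1, 4.75 for Gins3 and 6.31 for Cdc6. Gins3 and Cdc6 did not differ beyond their spread in either genotype when all 3 libraries were taken. Pcna thus exceeded Orc1 113-fold in mean RPKM over the 6 libraries. In wild type replicate 3 the order was different, with Rpa1 at rank 2, Mcm7 at rank 3 and Rrm2 at rank 29 among the 49.

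**Figure D1:**
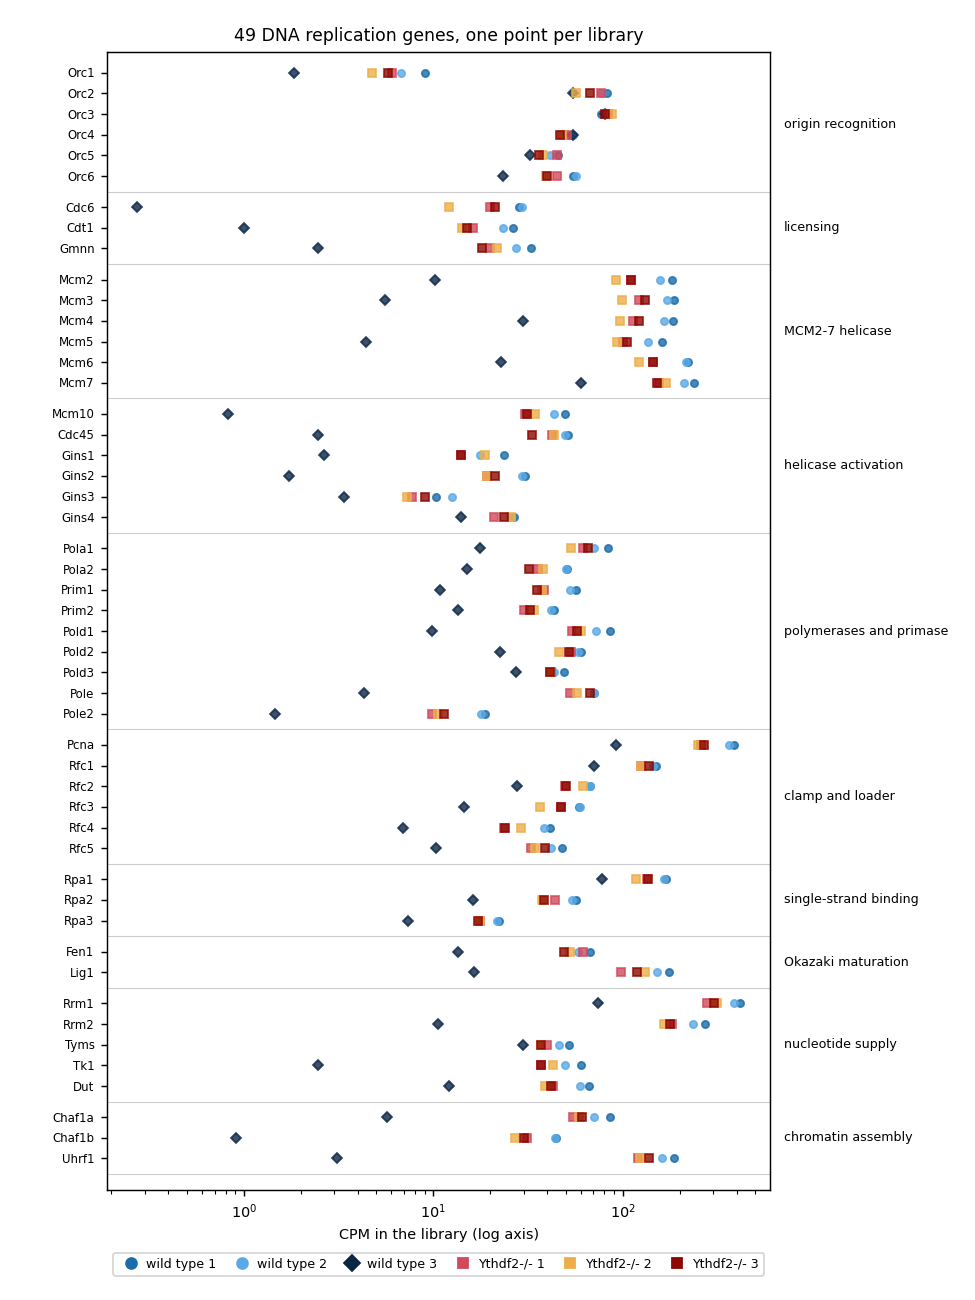
CPM (log axis) of each of the 49 genes, by role, with 1 point for each of the 6 libraries. Wild type replicate 3 (dark diamonds) is the lowest library for 47 genes, and the 3 Ythdf2-/- libraries (squares) lie below wild type replicates 1 and 2 (circles) for 44 genes.

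With all 6 libraries, no difference between the genotypes in any of the 49 genes exceeded the spread between replicates by the test used. edgeR's quasi-likelihood test, fitted over all 13112 genes with genotype as the term and Benjamini-Hochberg adjustment, gave 0 of the 49 an adjusted p under 0.05, with a smallest adjusted p of 0.999, and 0 an unadjusted p under 0.05. Over all genes tested, 0% passed the adjusted threshold in edgeR and 3.63% had an unadjusted p under 0.05. DESeq2 and limma-voom also gave 0 of the 49 in both counts, with 0.237% and 0% of all genes past the adjusted threshold and 4.29% and 3.47% past the unadjusted p. With sample quality weights, limma-voom gave 0 past the adjusted threshold (1.15% of all genes) and 16 past the unadjusted p (28.1%). The median log2 fold change (Ythdf2-/- relative to wild type) of the 49 genes was -0.03, and that of all genes was -0.01. Of the 49, 20 were above and 29 below wild type, a split that turned with the tool: limma-voom put 44 above, and limma-voom with sample quality weights put 1 above and 48 below. Of all genes tested, 48.1%, 52.3% and 50.2% were above wild type in these 3 fits. The fold changes ran from -0.26 to 0.29 on the log2 scale, and the standard error exceeded the size of the fold change for 48 of the 49. The median standard error was 0.56, and 0.12 without wild type replicate 3.

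The spread was widest on the wild type side, where replicate 3 lay far from the others. The 49 genes together took 0.471% and 0.430% of the reads in wild type replicates 1 and 2, 0.101% in wild type replicate 3, and 0.329%, 0.331% and 0.333% in Ythdf2-/- replicates 1, 2 and 3. In wild type replicate 3, 31 of the 49 genes were at least 4-fold below the mean of wild type replicates 1 and 2, as were 5.12% of all genes tested, and 16 were at least 10-fold below, as were 2.32% of all genes. Its level was the lowest of the 6 libraries for 47 of the 49, and for 34.5% of all genes tested. The exceptions were Orc3 and Orc4. The median difference between this library and the other wild type libraries was -2.33 on the log2 scale for the 49 genes and 0.01 for all genes.

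The Ythdf2-/- libraries lay in between. For 43 of the 49 genes all 3 Ythdf2-/- libraries were above wild type replicate 3 and below both other wild type libraries, an order that 11.4% of all genes tested showed. For 44 genes all 3 were below wild type replicates 1 and 2, and 20.0% of all genes were in that position. The 5 others were Orc3, Orc5, Gins1, Gins4 and Fen1. The 3 Ythdf2-/- libraries were close to each other: relative to the mean of wild type replicates 1 and 2, the median gene was at 70.4% in replicate 1, 73.0% in replicate 2 and 73.3% in replicate 3. In bulk RNA, fewer cycling cells and less RNA of these genes per cell cannot be told apart.

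**Figure D2:**
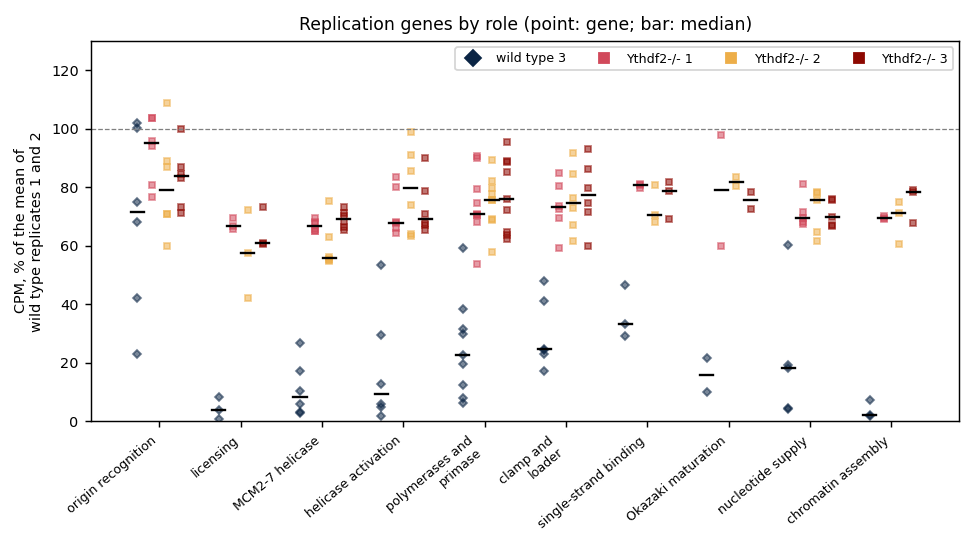
Level of each gene as a percentage of the mean CPM of wild type replicates 1 and 2 (dashed line, 100%), by role, in wild type replicate 3 and the 3 Ythdf2-/- libraries. Points are genes and bars medians. Licensing and chromatin assembly genes have medians of 4.06% and 2.06% in wild type replicate 3, and origin recognition genes 71.5%.

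Without wild type replicate 3, 48 of the 49 genes had a fold change below 0, as did 48.3% of all genes tested. The median log2 fold change was -0.47, or 72.3% of wild type, and that of all genes was 0.01. edgeR's test gave 37 of the 49 an unadjusted p under 0.05, each of them lower, and 8.58% of the 13283 genes tested were lower at that level. None of the 49 passed an adjusted p of 0.05 in edgeR, which 0.0151% of all genes passed, and the smallest adjusted p of the 49 was 0.151. Limma-voom, chosen after seeing the data, gave 37 and 0 for the same counts, with 16.4% of all genes past the unadjusted p in either direction and 0.0151% past the adjusted one.

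DESeq2 on the same 5 libraries, also chosen after seeing the data, gave 16 of the 49 an adjusted p under 0.05, each of them lower, while 1.63% of all genes with an adjusted p were lower and called. These 16 were Cdt1, the 6 genes Mcm2 to Mcm7, Gins2, Prim1, Pole2, Pcna, Rfc4, Rrm1, Rrm2, Dut and Chaf1b. The call thus turned on the library and on the tool. When 1 Ythdf2-/- library was left out as well, edgeR called 23 of the 49 without replicate 2, where 5.96% of all genes were called. It called 0 without Ythdf2-/- replicate 1 or 3, where 0% and 0.106% of all genes were called. Leaving out wild type replicate 1 or 2 instead left 1 wild type library, so only fold changes are read there. The median stayed between -0.55 and -0.38 in all of these fits. A library that is low in these genes was removed from one side, so the lower sign in this fit is partly built into the choice.

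**Figure D3:**
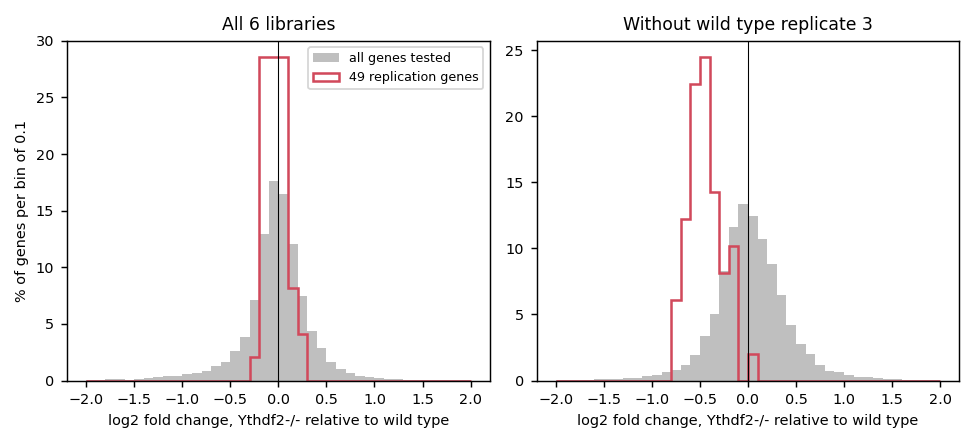
Share of genes by log2 fold change, in bins of 0.1 between -2 and 2, for all genes tested (grey) and the 49 replication genes (red line), with all 6 libraries (left) and without wild type replicate 3 (right). The median of the 49 genes is -0.03 on the left and -0.47 on the right, and that of all genes -0.01 and 0.01.

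The origin recognition genes Orc1 to Orc6, whose products form the complex that marks origins, stayed closest to the other libraries in wild type replicate 3, at a median of 71.5% (range 23.2% to 101.9%), the highest median of the 10 roles. Orc3 had 77.0, 83.3 and 80.3 CPM in wild type replicates 1, 2 and 3 and 83.1, 87.1 and 80.1 CPM in the Ythdf2-/- replicates. It was the one gene above wild type in both fits, with a log2 fold change of 0.06 (SE 0.11) with all libraries. Orc4 had 52.8, 54.4 and 54.6 CPM in wild type and 50.4, 47.7 and 46.5 CPM in Ythdf2-/-. All 3 Ythdf2-/- libraries were below all 3 wild type libraries for this gene alone of the 49, a position held by 4.92% of all genes. Its log2 fold change was -0.16 (SE 0.11, unadjusted p = 0.193 in edgeR), the smallest p of the 49.

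Orc2 had 82.6, 76.9 and 54.4 CPM in wild type and 76.5, 56.4 and 67.3 CPM in Ythdf2-/-, so the genotypes overlapped. Exons of Nif3l1 on the opposite strand overlap 24.0% of the exon bases of Orc2. Orc5 had 32.5 to 45.7 CPM over the 6 libraries, also with overlap. Orc6 had 54.5, 56.3 and 23.3 CPM in wild type and 44.8, 39.4 and 39.5 CPM in Ythdf2-/-, with an unadjusted p of 0.00602 in edgeR without wild type replicate 3 (log2 fold change -0.43). It was the one gene of the 6 under 0.05 in that fit. Orc1, the subunit whose protein comes and goes with the cell cycle in mammals, had 9.06, 6.71 and 1.83 CPM in wild type and 6.05, 4.73 and 5.79 CPM in Ythdf2-/-. It was the one origin recognition gene at least 4-fold lower in wild type replicate 3.

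The licensing genes were at a median of 4.06% of the other wild type libraries in wild type replicate 3, and all 3 were more than 4-fold lower there. Cdc6 had 28.4 and 29.3 CPM in wild type replicates 1 and 2, 0.274 CPM in replicate 3, and 20.0, 12.1 and 21.1 CPM in the Ythdf2-/- replicates. The 0.274 CPM rest on 3 reads, and the mean of the other wild type libraries was 105-fold higher, with a 95% counting interval of 36.0 to 510.1. Cdt1 had 26.2, 23.3 and 1.01 CPM in wild type and 16.3, 14.2 and 15.1 CPM in Ythdf2-/-. Its inhibitor Gmnn had 32.7, 27.3 and 2.47 CPM in wild type and 20.0, 21.7 and 18.2 CPM in Ythdf2-/-. In all 3 genes wild type replicates 1 and 2 were highest, the Ythdf2-/- libraries came between, and wild type replicate 3 was lowest. Without wild type replicate 3 the log2 fold changes were -0.70 (SE 0.24) for Cdc6, -0.70 (SE 0.14) for Cdt1 and -0.59 (SE 0.14) for Gmnn, and Cdt1 had an adjusted p of 0.0221 in DESeq2.

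The Mcm2 to Mcm7 genes encode the subunits of one ring. Mcm2 had 181, 158 and 10.1 CPM in wild type replicates 1, 2 and 3 and 110.3, 92.5 and 111 CPM in Ythdf2-/-. Mcm3 had 187, 170.3 and 5.57 CPM in wild type and 121, 98.7 and 131 CPM in Ythdf2-/-. In both genes wild type replicate 3 was the lowest library and the other wild type libraries the highest. Mcm4 had 183, 164 and 29.8 CPM in wild type and 113, 96.2 and 122 CPM in Ythdf2-/-. Mcm5 had 162, 135 and 4.39 CPM in wild type and 100.4, 93.6 and 106 CPM in Ythdf2-/-. The order was the same again, with Mcm5 at 2.95% of the other wild type libraries in replicate 3, the lowest share of the 6 subunits. The 95% counting intervals of Mcm5 and Mcm3 overlapped there. Mcm6 had 221, 216 and 22.8 CPM in wild type and 143, 122 and 145 CPM in Ythdf2-/-. Mcm7 had 236 and 210.4 CPM in wild type replicates 1 and 2, 59.9 CPM in replicate 3, and 155, 168 and 152 CPM in Ythdf2-/-.

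The subunits of the ring moved by similar amounts between wild type replicates 1 and 2 and Ythdf2-/-, but by different amounts in wild type replicate 3. Without that library the 6 log2 fold changes lay between -0.70 and -0.49, and all 6 genes passed the adjusted threshold in DESeq2 (the lowest adjusted p was 0.00136, for Mcm6) and none in edgeR. Among all genes, 1.63% were lower and called in DESeq2, and 0.0151% passed in edgeR. In wild type replicate 3 the levels ran from 2.95% (Mcm5) and 3.12% (Mcm3) to 17.1% (Mcm4) and 26.8% (Mcm7) of the other wild type libraries. The Mcm7 exons overlap exons of Ap4m1 and Cops6 on the opposite strand over 10.8% and 2.16% of their bases, and the strand setting of the counting is not given in the sources used here. With all libraries, Mcm4 was among the 2 genes most below wild type (log2 fold change -0.19, SE 0.60).

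The genes that turn the ring into a running helicase were low in wild type replicate 3 in 6 of 6 cases, at a median of 9.35% of the other wild type libraries. Mcm10, which helps to activate the loaded helicase, was at 1.78%, and Cdc45, part of the active helicase, at 4.88%. Of the GINS subunits, Gins2 was at 5.82%, Gins1 at 12.9%, Gins3 at 29.5% and Gins4 at 53.5%. The 95% counting intervals of Gins1 and Gins2 overlapped. Gins3 had 10.3, 12.6 and 3.38 CPM in wild type and 7.75, 7.25 and 9.003 CPM in Ythdf2-/-. Without wild type replicate 3, all 6 genes were below wild type (log2 fold change -0.59 to -0.16), 4 with an unadjusted p under 0.05 in edgeR. In that fit 48.3% of all genes were below wild type, and 8.58% were lower at that p. Gins2 passed in DESeq2 (adjusted p = 0.0394), but 70.7% of its exon bases overlap exons of Gse1 on the opposite strand, and its count is uncertain.

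Polymerases and primase were lowest in wild type replicate 3 in 9 of 9 genes, as were 34.5% of all genes tested. Pole2, the B subunit of the leading-strand polymerase epsilon, had 18.8, 17.8 and 1.46 CPM in wild type and 9.88, 10.6 and 11.4 CPM in Ythdf2-/-. It had the most negative fold change of the 49 in both fits, -0.26 (SE 0.79) with all libraries and -0.79 (SE 0.15) without wild type replicate 3, where its adjusted p was 0.151 in edgeR and 0.0160 in DESeq2. Pole, the catalytic subunit of the same enzyme, had 70.2, 70.1 and 4.29 CPM in wild type and 52.4, 57.5 and 66.9 CPM in Ythdf2-/-. It had the most positive fold change of the 49 with all libraries (0.29, SE 0.85), and a negative one without wild type replicate 3 (-0.25, SE 0.12).

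The primase subunit Prim1 was at 19.7% and its partner Prim2 at 31.6% of the other wild type libraries in wild type replicate 3. Their log2 fold changes without that library were -0.56 (SE 0.10) and -0.41 (SE 0.11), and Prim1 passed in DESeq2 (adjusted p = 0.0151). Polymerase alpha, which extends the primers, was represented by Pola1 (22.7% in wild type replicate 3) and Pola2 (29.8%). The subunits of the lagging-strand polymerase delta ranged from 12.4% for the catalytic Pold1 to 38.2% for Pold2 and 59.3% for Pold3. For all 9 genes of this group the Ythdf2-/- libraries were below wild type replicates 1 and 2, as for 20.0% of all genes tested. Their log2 fold changes lay between -0.26 and 0.29 with all libraries and between -0.79 and -0.16 without wild type replicate 3.

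Pcna, the clamp, had 385, 363 and 92.3 CPM in wild type and 259, 250.4 and 267 CPM in Ythdf2-/-. Wild type replicate 3 was the lowest library, and wild type replicates 1 and 2 were above every Ythdf2-/- library. The log2 fold change was -0.11 (SE 0.50) with all libraries and -0.53 (SE 0.10) without wild type replicate 3, with an adjusted p of 0.151 in edgeR and 0.00187 in DESeq2. The pseudogenes Pcna-ps1 and Pcna-ps2 could share its reads. The loader that opens the clamp is made of Rfc1 to Rfc5. In wild type replicate 3, Rfc4 was at 17.4%, Rfc5 at 23.0%, Rfc3 at 24.5%, Rfc2 at 41.2% and the large subunit Rfc1 at 48.0% of the other wild type libraries. Rfc4 had the most negative log2 fold change of the loader without that library (-0.64, SE 0.14, adjusted p = 0.0287 in DESeq2) and Rfc1 the least (-0.19, SE 0.09). Exons of other genes on the opposite strand overlap 13.4% of the exon bases of Rfc4, 15.4% of Rfc5 and 19.1% of Rfc2.

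The single-strand binding proteins Rpa1, Rpa2 and Rpa3, which coat the unwound template, were at 46.6%, 29.3% and 33.4% in wild type replicate 3, and none of the 3 was 4-fold lower there. Without that library their log2 fold changes lay between -0.47 and -0.32, with an unadjusted p under 0.05 for all 3 in edgeR and none called by DESeq2. Among all genes, 8.58% were lower at that p in edgeR and 1.63% were lower and called in DESeq2. Fen1, the nuclease that trims Okazaki fragments, had 67.2, 58.2 and 13.5 CPM in wild type and 61.3, 52.3 and 49.2 CPM in Ythdf2-/-. Its Ythdf2-/- libraries overlapped wild type replicates 1 and 2. Among the 49 its fold change with all libraries (0.23, SE 0.54) was the most positive after that of Pole, and 78.8% of its exon bases overlap an annotated antisense transcript. Lig1, the ligase that joins the fragments, was at 10.1% in wild type replicate 3, and its log2 fold change without that library was -0.49 (SE 0.15).

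Of the nucleotide supply genes, Rrm2 had 273, 236 and 10.6 CPM in wild type and 182, 164 and 177 CPM in Ythdf2-/-. Rrm1 had 416, 386 and 73.7 CPM in wild type and 279, 313 and 303 CPM in Ythdf2-/-. The subunits of this one enzyme were thus at 4.17% and 18.4% in wild type replicate 3, and at log2 fold changes of -0.54 (SE 0.11) and -0.43 (SE 0.11) without it, both called by DESeq2 (adjusted p = 0.0135 and 0.0392). Tyms, which makes thymidylate, had 51.7, 46.3 and 29.6 CPM in wild type and 39.7, 37.1 and 37.1 CPM in Ythdf2-/-, and a listed pseudogene, Tyms-ps, could share its reads. Its log2 fold change was -0.16 (SE 0.22) with all libraries and -0.37 (SE 0.10) without wild type replicate 3. The thymidine kinase Tk1 was at 4.50% and the dUTPase Dut at 19.4% in wild type replicate 3. Dut had a log2 fold change of -0.61 (SE 0.10) without that library (adjusted p = 0.00961 in DESeq2).

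The chromatin assembly genes had the lowest median of the 10 roles in wild type replicate 3, 2.06%, and all 3 were at least 4-fold lower there. Chaf1b was at 2.06% and Chaf1a at 7.25% there; both encode subunits of CAF-1, which places histones on new DNA. Uhrf1, which brings the maintenance methyltransferase to newly copied sites, was at 1.79%. Without that library their log2 fold changes were -0.60 (SE 0.11) for Chaf1b, -0.43 (SE 0.12) for Chaf1a and -0.45 (SE 0.11) for Uhrf1, and Chaf1b passed in DESeq2 (adjusted p = 0.0211). Exons of Ubxn6 on the opposite strand overlap 33.6% of the exon bases of Chaf1a.

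**Figure D4:**
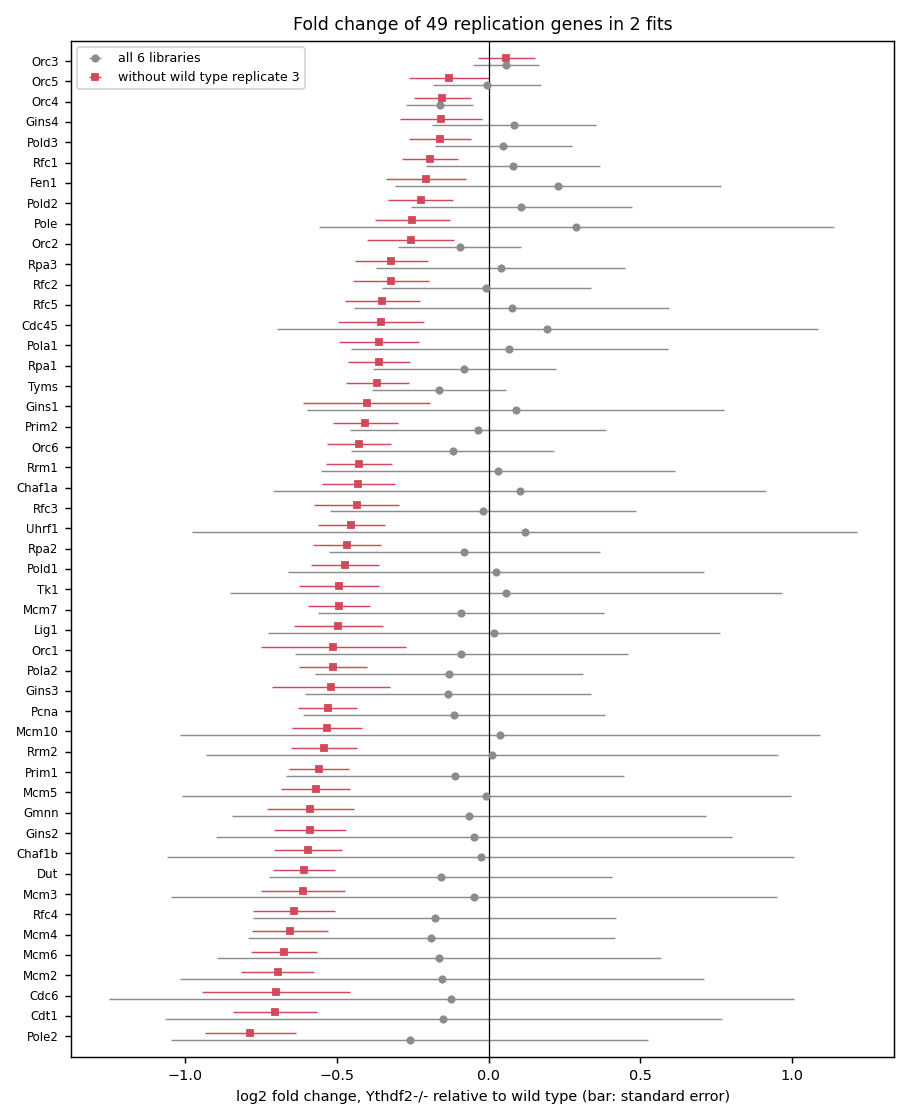
Log2 fold change of each of the 49 genes with its standard error, with all 6 libraries (grey circles) and without wild type replicate 3 (red squares). The grey bars cross 0 for 48 genes, and the red points are negative for 48 genes, with Orc3 the exception.

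Other replication genes, 40 that are not among the 49 (origin firing kinases, fork protection, further polymerase and nucleotide genes), were read in the same fits. With all 6 libraries 22 were below and 18 above wild type, and 0 of the 40 passed an adjusted p of 0.05 in edgeR (0 also at an unadjusted p under 0.05, and 0 in DESeq2). Without wild type replicate 3, 38 of the 40 were below wild type (48.3% of all genes), 22 of them with an unadjusted p under 0.05 (8.58%) and 0 past the adjusted threshold in edgeR (0.0151%), while DESeq2 called 5 (2.89% of all genes in either direction). Their median log2 fold change there was -0.37, and 18 of the 40 were at or below 25% of the other wild type libraries in wild type replicate 3, as were 5.28% of all genes. The histone chaperone Nasp, with the highest mean CPM of them, had 312, 254 and 127 CPM in wild type and 200.3, 194 and 216 CPM in Ythdf2-/-. The methyltransferase Dnmt1 had 298, 258 and 101.0 CPM in wild type and 187, 212 and 212 CPM in Ythdf2-/-. In both, the Ythdf2-/- libraries lay between wild type replicate 3 and the other wild type libraries, as they did for 27 of the 40 and for 11.4% of all genes. Mcm9 and Rrm2b, named after their values were seen, were highest in wild type replicate 3.

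Marker genes of cell types and of dividing cells moved with wild type replicate 3. The 8 mitotic genes (Mki67, Top2a, Cdk1, Ccnb1, Ccnb2, Aurkb, Bub1, Plk1) summed to 24.5 CPM in wild type replicate 3, 1904 to 2151 CPM in the other wild type libraries and 1464 to 1859 CPM in Ythdf2-/-, and all 8 were lowest in wild type replicate 3, with Aurkb at 0 reads there. The 6 astroglial markers summed to 6797 CPM in that library, 2442 to 3145 CPM in the other wild type libraries and 1101 to 2587 CPM in Ythdf2-/-, and 3 of the 6 were highest in it. The 9 oligodendrocyte lineage markers summed to 3468 CPM there and 1573 to 1901 CPM in the other 5 libraries, with 5 of the 9 highest in it, 3 (Olig1, Olig2 and Cspg4) lowest in it, and Mag at 0 in the Ythdf2-/- libraries. The 6 neuronal markers summed to 1898 CPM there and 1218 to 1437 CPM elsewhere, with 4 of the 6 highest and Gap43 lowest in it, and Map2 made up most of the sum in every library. The 7 neural progenitor markers, which check the label of the cultures, were all detected, and summed to 3386 CPM in wild type replicate 3 and 4803 to 6501 CPM in the other libraries. The list was split: Nes, Vim and Fabp7, which carry most of the sum, were lowest in wild type replicate 3, and Sox2, Pax6, Hes1 and Hes5 were highest there. Microglial, endothelial and mesenchymal markers summed to at most 4.84, 1.62 and 32.6 CPM in any library, with Cldn5 at 0 in all 6. The 32.6 CPM were those of wild type replicate 3, where Pdgfrb had 31.7 CPM. The mesenchymal sum was 4.12 to 4.53 CPM in the other wild type libraries and 1.11 to 5.28 CPM in Ythdf2-/-. Between wild type replicates 1 and 2 and Ythdf2-/-, the mitotic sum and the summed level of the 49 genes were both lower in Ythdf2-/-. Single mitotic genes did not all follow the sum: Mki67, Ccnb1, Ccnb2 and Plk1 overlapped between Ythdf2-/- and wild type replicates 1 and 2. The mitotic sums were 1464, 1859 and 1683 CPM in Ythdf2-/- replicates 1, 2 and 3 and 2151 and 1904 CPM in wild type replicates 1 and 2. The 49 genes summed to 3295, 3217 and 3370 CPM and to 4713 and 4323 CPM in the same libraries. The part of these cell types in the levels of the 49 genes was not tested.

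**Figure D5:**
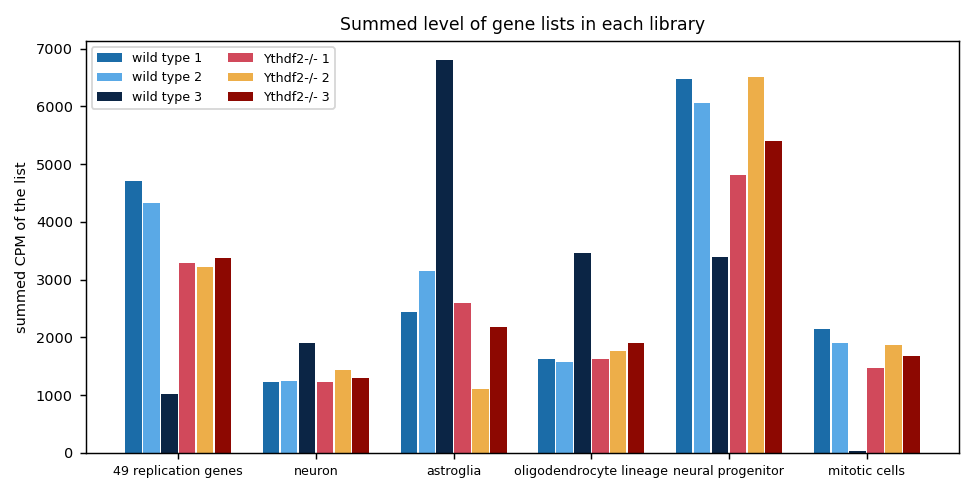
Summed CPM of the 49 replication genes and of 5 marker lists in each library. The replication and mitotic lists are lowest in wild type replicate 3 (1022 and 24.5 CPM), where the astroglial list is highest (6797 CPM).

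Libraries with and without Y-linked reads were also compared within their own kind, although each then holds few libraries. With Y-linked reads, Ythdf2-/- replicate 3 was below both wild type replicates 1 and 2 for 48 of the 49 genes, a position held by 42.9% of all genes, at a median of 73.3% of their mean. Without Y-linked reads, Ythdf2-/- replicates 1 and 2 were each above wild type replicate 3 for 48 of the 49 genes, as for 50.4% and 50.9% of all genes, at a median 3.51-fold higher level. The direction between genotypes was therefore opposite in the 2 kinds, and a term for Y-linked reads gave a median log2 fold change of 0.63, with 47 of 49 genes above wild type (50.8% of all genes were above) and 0 past an unadjusted p of 0.05 in edgeR, which 1436 of the 13112 genes tested passed. Both comparisons without Y-linked reads rest on wild type replicate 3.

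The transcripts were also read for GGACT, the sequence at which m6A is most often placed. In the longest protein-coding transcript of GENCODE M21, the 49 genes held a median of 1.23 per kilobase and the 12288 tested genes with a transcript 1.04 per kilobase, with quartiles of 0.836 to 1.58 and 0.651 to 1.50. Pole2, Prim2, Rfc4 and Rpa3 held none. These are counts of letters, and the m6A-IP libraries were not analysed here.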

How the data were processed

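Raw counts per gene were deposited by the authors for 6 input libraries, 3 per genotype; the m6A-IP libraries were not analysed here. Reads were aligned to mm10, with TopHat in the study's methods, while the submitters' processing notes name featureCounts, Bowtie2 2.2.9 and RSEM 1.2.15. The strand setting of the counting is not given in the sources used here, so genes with exons on both strands are uncertain. The authors also deposited expected counts and FPKM, which rest on only 234725 to 272646 expected counts per library, about 2% of the raw counts (1.97% to 2.40%). Their lengths were used for RPKM, and the FPKM for 2 alternatives. The 49 genes held a median of 5 expected counts over the 6 libraries, and 32 of them are listed at 0 in some library. FPKM fold changes are on the log2(FPKM + 1) or log2(FPKM + 0.1) scale, with a mean FPKM of at least 1, and understate the change of low genes.

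Counts were tested with edgeR 4.0.16 in R 4.3.3 (filterByExpr, TMM factors, robust glmQLFit, then glmQLFTest), in a model with genotype alone, and p-values were adjusted by Benjamini-Hochberg over all genes tested. CPM are counts divided by library total times TMM factor (0.988 to 1.03). The standard error of a fold change is its size divided by the square root of the F statistic. DESeq2 1.42.0 and limma 3.58.1 were alternatives, with other scalings, filters, the replicate block, a Y-linked term (a sum over 4 genes above 3 reads) and each library left out; 17 alternatives were planned and 7 added after seeing the data. The script was tested on simulated data. Replicates are called biological by the study; if cultures were not separate, p-values measure only technical spread. For a single gene the smallest p of an exact permutation test would be 0.1, since each genotype has 3 libraries. Without wild type replicate 3 it would be 0.2. The counting interval covers counting error only.

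The member genes and lists were chosen with earlier results of these data known, so no test was made on a list. All members are named, with values per library for Mcm2 to Mcm7, Pcna, Rrm2, Cdt1 and Gmnn, the 6 smallest unadjusted p, the 3 highest and 3 lowest RPKM and the 2 largest fold changes in each direction. Of other lists, at most the 3 genes of highest CPM were named with values. Aurkb, Mag, Cldn5, the split of the progenitor list and the mitotic genes that overlapped between genotypes were named after their values were seen. Opposite-strand exons were read from GENCODE M21, and the 50 member promoters matched the GRCm38.p6 genome. Protein sequences were not used here. Summaries were made in Python 3.11.15 (pandas 2.3.3, scipy 1.17.1).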

Additional observations from a re-analysis of the deposited data

How the results depend on the processing

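No gene of the 49 passed an adjusted p of 0.05 under any of the 17 planned settings, where 0% to 1.15% of all genes passed. The count at an unadjusted p under 0.05, 0 with all 6 libraries, was 16 with limma-voom quality weights (wild type replicate 3 had a weight of 0.0957), a setting under which 28.1% of all genes were past that p, 2 of 30 with log2(FPKM + 1) (3.62% of all genes) and 0 to 37 when 1 library was left out, with 37 without wild type replicate 3 (16.6% of all genes). Alternatives chosen after seeing the data gave, without that library, 16 adjusted and 32 unadjusted calls in DESeq2 (2.89% of all genes with an adjusted p, and 1925 of 13279 genes) and 37 unadjusted calls in limma-voom (16.4%). With 1 Ythdf2-/- library left out as well, edgeR gave 23 adjusted calls without replicate 2 (5.96% of all genes) and 0 without replicate 1 or 3 (0% and 0.106%). With wild type replicate 1 or 2 left out as well, 1 wild type library remained, and calls are not given. The 40 other replication genes had 5 adjusted calls in DESeq2 without wild type replicate 3 and at most 8 in edgeR with 1 Ythdf2-/- library left out as well.

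The median log2 fold change of the 49 genes, -0.03, changed size and sign with the setting. It was -0.41 with limma-voom quality weights, 0.22 with limma-voom, 0.63 with the Y-linked term, 0.04 with log2(FPKM + 1), and -0.47 to 0.26 when 1 library was left out. Scaling by totals or RLE, filters and DESeq2 kept it between -0.04 and -0.02. Of 793 values of single genes, 779 moved by less than that gene's spread between replicates, which wild type replicate 3 widens, and the 14 others came from FPKM. The median of all genes was 0.11 and 0.14 on the FPKM scales. The cause of these changes was not tested.

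Deviations of same-numbered libraries correlated at -0.24, -0.24 and -0.39 for replicates 1, 2 and 3. Against Ythdf2-/- replicate 3, wild type replicates 1, 2 and 3 correlated at 0.34, 0.39 and -0.39. Wild type replicate 3 lay far from the others, and deviations within a genotype depend on each other. These correlations therefore cannot show whether the replicate numbers pair the libraries. With the replicate block the median was 0.22, with 44 of 49 genes above wild type and 0 calls, and 52.1% of all genes were above, with 183 of 13112 past an unadjusted p of 0.05 and 0 past the adjusted one.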
